A study of Mus musculus with 58 samples.

Results

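The genes described here make, sense, store and export cholesterol and other lipids, and their transcripts were measured in mouse microglia. The 33 members were chosen by name from the sterol synthesis, uptake and efflux pathways, and all 33 were found among the 47643 genes counted in each of 34 microglia libraries. They comprise 7 genes of the mevalonate pathway, 11 genes of the steps from squalene to cholesterol, 5 genes that control the transcription factor SREBP, 5 genes of LXR signaling and efflux, 3 genes of storage and transport and 2 genes of fatty acid synthesis.

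Cells build cholesterol from acetyl-CoA through mevalonate, squalene and lanosterol. When sterols in the endoplasmic reticulum are scarce, Scap escorts SREBP-2, the product of Srebf2, to the Golgi, where it is cleaved and released to activate the synthesis genes, and the Insig proteins retain it when sterols are plentiful. SREBP-1c, from Srebf1, acts in the same way on fatty acid genes such as Fasn and Scd2. Oxysterols activate the nuclear receptors LXRα (Nr1h3) and LXRβ (Nr1h2), which raise transcription of the cholesterol exporters Abca1 and Abcg1. In the brain, where cholesterol does not arrive from the blood, astrocytes make most of the supply of the adult tissue, and microglia take up and export the cholesterol of myelin and cell debris.

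Primary wild-type microglia were shaken off mixed glial cultures of newborn mouse hippocampi and cortices and kept for 24 h with vehicle or with fibrils of full-length tau at 2 µg/ml (4 libraries each). Microglia of male PS19 mice, which express human tau with the P301S mutation from a prion promoter, and of nontransgenic controls (NTG) were enriched from the adult brain with magnetic beads against CD11b (4 libraries each). All PS19 mice were 10.98 months of age, as were those of NTG 3 and 4, while NTG 1 and 2 were at 11.18 months. IkbkbCA microglia were primary cells of Cx3cr1CreERT2/+; IkbkbCA F/F mice, in which Cre removes a stop cassette in front of a constitutively active IKKβ, the kinase that activates NF-κB, and IkbkbWT cells carried the same floxed allele without Cre (5 libraries each). Ikbkb-/- microglia were primary cells of Cx3cr1CreERT2/+; Ikbkb F/F mice, in which Cre deletes IKKβ, and Ikbkb+/+ cells were Ikbkb F/F without Cre (4 libraries each). All 4 Ikbkb groups received 4-hydroxytamoxifen in the mixed culture, and the Cre groups lack 1 Cx3cr1 allele, which the Cre replaces. Cre also recombines in other macrophages that express Cx3cr1. The labels do not say whether the libraries of a cultured group came from separate animals or cultures, so that p-values measure the spread between these libraries, which may be technical.

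Total counts were 1672052 to 8349128 per library. In CPM normalized over all 34 libraries, the 8 microglia markers summed to 4577 or more in every library, and the sum was lowest with vehicle. P2ry12, a marker of resting microglia, had a group mean of 6.43 CPM with vehicle and 4333 CPM in NTG. Other cell types were present: astrocyte markers summed to 53.2 to 1987 CPM, mostly from Slc1a3 in NTG and PS19, where Gfap was at 0.40 to 2.85 CPM, and oligodendrocyte markers to 169 to 5507 CPM, the highest oligodendrocyte value being that of library IkbkbWT 3 (5507 CPM), followed by IkbkbCA 3 (2103 CPM). Granulocyte markers reached 345 to 2115 CPM in PS19 and 1212 to 1833 CPM in NTG. Ikbkb itself was at 18.7 to 24.7 CPM in Ikbkb-/- against 45.6 to 55.2 CPM in Ikbkb+/+, with no overlap, and at 45.0 to 60.4 CPM in IkbkbCA against 40.4 to 58.8 CPM in IkbkbWT, with overlap. The paper reports raised Ikbkb mRNA in IkbkbCA cultures by quantitative PCR. Whether the counts of Ikbkb include transcripts of the inserted active form was not tested.

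The promoters of 5 members are shown because these genes carry the results: Hmgcs1, Mvd and Fasn were lower with tau fibrils, Nr1h3 and Ch25h were higher. RefSeq starts on GRCm38.p6 were found for 27 of the 33 members, with 36 promoters in all, and each sequence below is the 250 bases before the start, 5′ to 3′ on the strand of the gene. Stard4, Fdft1, Abcg1, Fdps, Sqle and Scd2 had no entry. Capitals mark every match to a sterol regulatory element (TCACNCCAC), a CCAAT box (CCAAT), a κB motif, the core of an interferon-stimulated response element (GAAANNGAAA) or an LXR repeat of the DR4 type (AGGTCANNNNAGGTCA), searched on both strands with overlapping matches kept.
Hmgcs1, chr13:119690101-119690350, plus strand: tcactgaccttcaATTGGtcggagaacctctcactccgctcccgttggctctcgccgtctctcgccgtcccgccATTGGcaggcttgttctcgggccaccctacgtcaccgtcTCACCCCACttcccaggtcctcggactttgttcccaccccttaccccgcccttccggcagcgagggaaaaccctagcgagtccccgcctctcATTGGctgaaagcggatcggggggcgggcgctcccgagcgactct
Mvd, chr8:122443423-122443672, minus strand: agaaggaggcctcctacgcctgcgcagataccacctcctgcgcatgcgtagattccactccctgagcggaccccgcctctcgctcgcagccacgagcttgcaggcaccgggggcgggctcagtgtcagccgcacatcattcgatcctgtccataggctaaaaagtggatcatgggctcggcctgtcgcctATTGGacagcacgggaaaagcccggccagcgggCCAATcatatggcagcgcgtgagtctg
Fasn, chr11:120824548-120824797, minus strand: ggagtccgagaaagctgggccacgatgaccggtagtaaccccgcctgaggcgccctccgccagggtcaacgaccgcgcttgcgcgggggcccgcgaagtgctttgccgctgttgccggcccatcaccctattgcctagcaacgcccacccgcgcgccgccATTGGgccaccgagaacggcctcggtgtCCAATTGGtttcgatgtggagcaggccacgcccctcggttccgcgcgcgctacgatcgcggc
Nr1h3, chr2:91195036-91195285, minus strand, 1 of 2 starts: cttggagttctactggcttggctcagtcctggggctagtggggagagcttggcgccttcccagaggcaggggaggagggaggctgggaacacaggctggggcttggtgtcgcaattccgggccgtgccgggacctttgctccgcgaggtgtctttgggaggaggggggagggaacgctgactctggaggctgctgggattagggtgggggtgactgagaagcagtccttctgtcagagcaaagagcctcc
Ch25h, chr19:34475149-34475398, minus strand: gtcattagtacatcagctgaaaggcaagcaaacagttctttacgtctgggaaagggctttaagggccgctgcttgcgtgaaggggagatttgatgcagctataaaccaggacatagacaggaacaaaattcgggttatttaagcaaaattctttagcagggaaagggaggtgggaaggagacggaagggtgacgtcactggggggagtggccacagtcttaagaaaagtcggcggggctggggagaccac

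Hmgcs1 held the sterol regulatory element, 137 bases before its start, together with 3 CCAAT boxes read on the minus strand. It was the 1 promoter of the 36 with this element, which 1.05% of all 32851 promoters of this length held. Mvd held 2 CCAAT boxes and Fasn 3, of which the last 2 overlap in the letters CCAATTGG. The Nr1h3 and Ch25h windows held none of the motifs. A CCAAT box stood in 22 of the 36 promoters (61.1%) against 33.8% of all promoters. Of the members lower with tau fibrils, 9 of the 11 with a promoter held one at any of their starts, as did 12 of the 12 members that were not called or not tested, and 0 of the 4 higher members did. The share of 33.8% is per promoter and not per gene, so that it is not the background of these counts. The κB motif was found for Ebp, Insig2, Mvk, Pmvk and Srebf1, in 5 of 36 promoters (13.9%) against 7.25% of all, the interferon core for Ebp (2.98% of all) and the LXR repeat for no member (0.0152% of all). These are matches of letters in a short window.

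The first comparison asked how tau fibrils change the transcriptome of cultured microglia. Genes of cholesterol and fatty acid synthesis were lower after tau fibrils, while both LXR genes and both exporters were higher. Of 32 members tested, 14 were lower, 5 were higher and 13 were not called (quasi-likelihood test of edgeR, FDR under 0.05 after Benjamini-Hochberg adjustment over 10408 genes). The background was 15.4% of all tested genes lower and 14.5% higher. The median log2 fold change was -0.46 over the members and -0.01 over all genes, and 24 of the 32 members had a negative fold change. In 15 members the 4 tau-stimulated libraries lay wholly above or below the 4 vehicle libraries, which was so for 28.3% of all genes. Idi1, the isomerase of the isoprenoid units, had at most 8 counts in any of the 34 libraries and was not tested in any comparison.

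**Figure D1:**
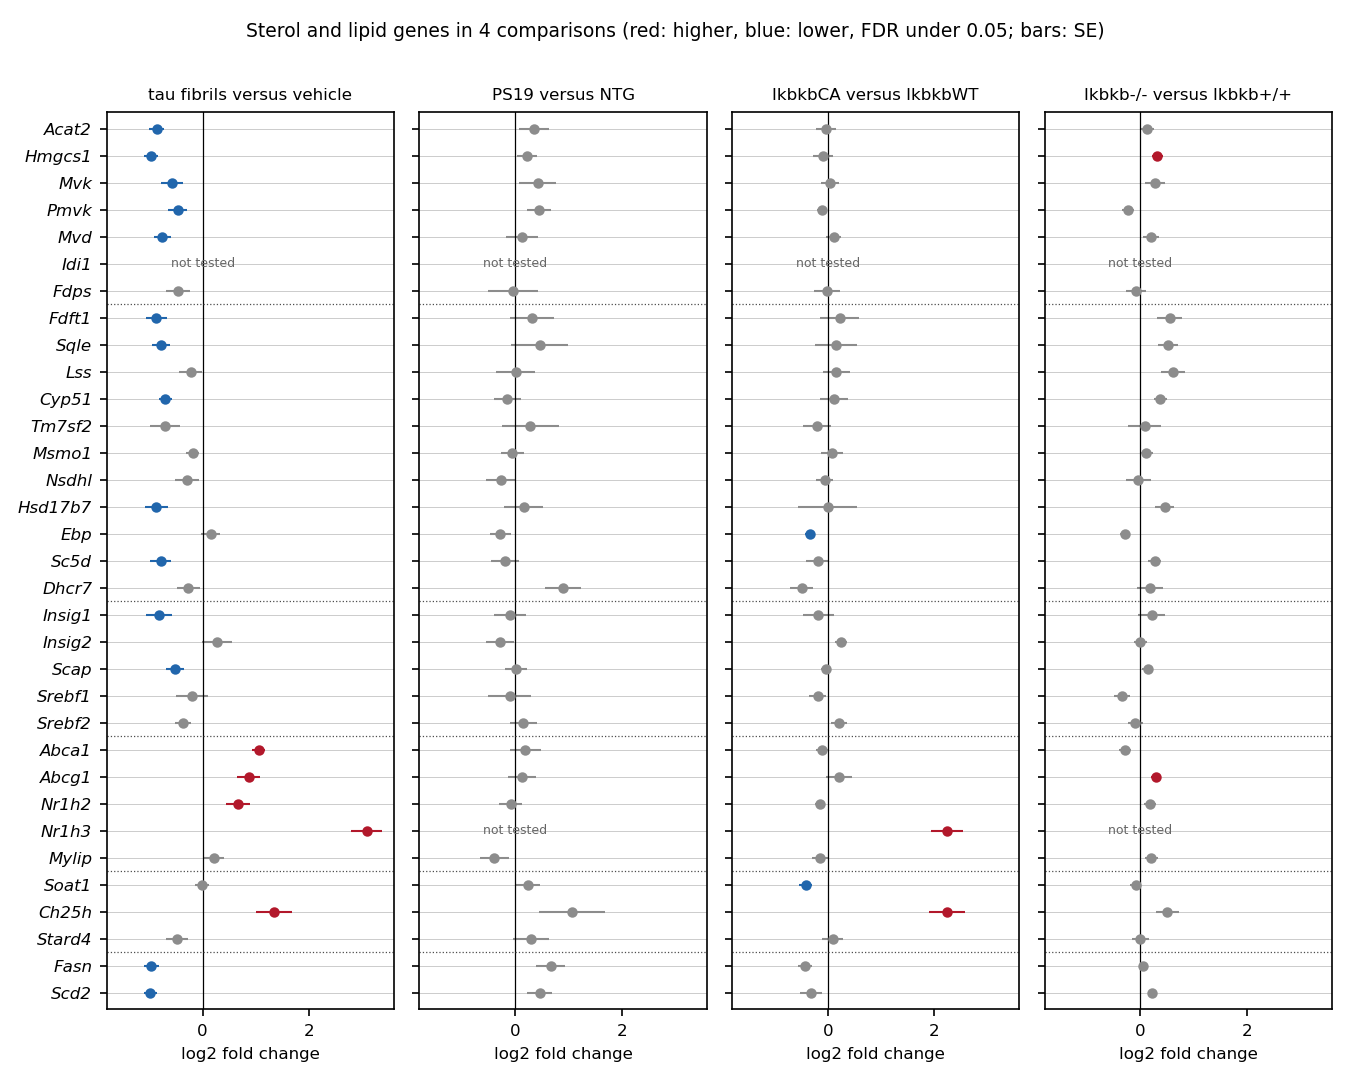
Log2 fold change (x axis) of each of the 33 members (rows, by role) in the comparisons of tau fibrils with vehicle, PS19 with NTG, IkbkbCA with IkbkbWT and Ikbkb-/- with Ikbkb+/+, with standard errors as bars, red for higher, blue for lower and grey for not called. The calls are 14 lower and 5 higher with tau fibrils, 0 in PS19, 2 lower and 2 higher in IkbkbCA and 2 higher in Ikbkb-/-.

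In the mevalonate pathway, 5 of 6 tested genes fell and none rose, with a median log2 fold change of -0.66. Hmgcs1 (ENSMUSG00000093930, GRCm38 chromosome 13, 119690379 to 119708260), the synthase that makes HMG-CoA, had CPM within this comparison of 511, 521, 418 and 398 in the 4 tau-stimulated libraries and 882, 917, 967 and 845 in the vehicle libraries. Every tau-stimulated library was below every vehicle library. The log2 fold change of Hmgcs1 was -0.97 (standard error 0.13, FDR = 1.1e-06). Acat2, the cytosolic thiolase that joins acetyl-CoA units, had 58.9, 59.5, 68.3 and 52.9 CPM with tau fibrils and 105, 108, 108 and 117 CPM with vehicle. Its groups did not overlap, and its log2 fold change was -0.86 (standard error 0.14, FDR = 2.4e-05). Mvd, the decarboxylase, fell by 0.76 on the log2 scale (standard error 0.17, FDR = 0.00089). The kinases Mvk and Pmvk fell by 0.57 (FDR = 0.038) and 0.47 (FDR = 0.049), close to the threshold. Fdps, which makes farnesyl diphosphate, was at 33.8 ± 11.8 CPM against 45.7 ± 12.1 CPM (SD, n = 4) and was not called (log2 fold change -0.45, FDR = 0.14).

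Among the genes from squalene to cholesterol, 5 of 11 fell, 0 rose and 10 of 11 had a negative fold change, with a median of -0.70. Fdft1, the squalene synthase, had 25.2, 27.5, 21.8 and 22.4 CPM with tau fibrils and 36.7, 41.7, 61 and 37.6 CPM with vehicle. The groups did not overlap, and the log2 fold change was -0.87 (standard error 0.20, FDR = 0.0016). Exons of Fdft1 overlap exons of the abundant Ctsb on the other strand, and the strand used in counting is not given in the sources used here, so that reads of Fdft1 are uncertain. The same holds for Cyp51 with Akap9 and Srebf1 with Rai1 on opposite strands, and for Tm7sf2 with Vps51 on the same strand. Sqle, the squalene epoxidase and a rate-limiting step of the pathway, lay at 37.9 to 49.3 CPM with tau fibrils and 65.5 to 95.6 CPM with vehicle, without overlap (log2 fold change -0.78, standard error 0.17, FDR = 0.00069). Cyp51, which demethylates lanosterol, was at 139 ± 7.69 CPM against 226 ± 18.4 CPM (SD, n = 4), and its log2 fold change was -0.70 (standard error 0.13, FDR = 9.0e-05). Hsd17b7, a sterol ketoreductase, and Sc5d, the lathosterol desaturase, fell by 0.87 (FDR = 0.003) and 0.79 (FDR = 0.0022) on the log2 scale, Hsd17b7 with groups that overlapped. The other 6 genes of this list, Lss, Tm7sf2, Msmo1, Nsdhl, Ebp and Dhcr7, ranged from -0.71 to 0.15 and were not called. The decrease was thus uneven along the pathway, and in Msmo1, the sterol methyl oxidase, the level was 173 ± 19.0 CPM against 197 ± 14.1 CPM (SD, n = 4, FDR = 0.29).

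Both fatty acid genes fell. Scd2 (ENSMUSG00000025203, chromosome 19, 44293674 to 44306864), the stearoyl-CoA desaturase isoform abundant in brain, had 377, 346, 334 and 354 CPM with tau fibrils and 728, 634, 777 and 658 CPM with vehicle. Fasn (ENSMUSG00000025153, chromosome 11, 120805846 to 120824547), the fatty acid synthase, had 89.5, 107, 87.3 and 81.7 CPM with tau fibrils and 206, 169, 175 and 166 CPM with vehicle. In both genes every tau-stimulated library was below every vehicle library. The log2 fold change was -0.99 for Scd2 (standard error 0.12, FDR = 4.1e-07) and -0.96 for Fasn (standard error 0.14, FDR = 3.3e-06).

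Of the 5 genes that control SREBP, 2 fell and 0 rose. Insig1, the retention protein that is itself an SREBP target, had 10.8, 10.8, 13.1 and 15.0 CPM with tau fibrils and 25.7, 20.9, 20.3 and 21.3 CPM with vehicle. The groups did not overlap (log2 fold change -0.82, standard error 0.24, FDR = 0.011). Scap fell by 0.52 on the log2 scale (FDR = 0.018). The transcripts of the factors themselves were not called: Srebf1 lay at 8.12 to 17.1 CPM against 10.4 to 14.8 CPM (FDR = 0.67) and Srebf2 at 95.6 to 122 CPM against 106 to 177 CPM (FDR = 0.071). Insig2 had a log2 fold change of 0.27 (FDR = 0.52).

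Of the 5 genes of LXR signaling and efflux, 4 rose, 0 fell and all 5 had a positive fold change, with a median of 0.87. Nr1h3 (ENSMUSG00000002108, chromosome 2, 91184061 to 91202834), which encodes LXRα, had 26.4, 41.9, 39.7 and 27.8 CPM with tau fibrils and 2.33, 5.28, 2.36 and 4.91 CPM with vehicle. The lowest tau-stimulated library stood far above the highest vehicle library. The vehicle libraries held 4 to 26 counts of Nr1h3, so that it passed the filter for low counts through the tau-stimulated group. The log2 fold change was 3.08 (standard error 0.30, FDR = 3.8e-09), the largest of the members in this comparison. Abca1 (ENSMUSG00000015243, chromosome 4, 53030787 to 53159895), which loads cholesterol onto lipid-poor apolipoproteins, had 261, 239, 258 and 305 CPM with tau fibrils and 127, 123, 128 and 134 CPM with vehicle. The 2 groups did not overlap, and the log2 fold change was 1.06 (standard error 0.13, FDR = 2.3e-07). Abcg1, the exporter to mature lipoprotein particles, lay at 31.6 to 53.4 CPM against 17.5 to 32.7 CPM, with a small overlap (log2 fold change 0.87, standard error 0.22, FDR = 0.003). Nr1h2, which encodes LXRβ, rose by 0.66 with overlapping groups (FDR = 0.031). Mylip, a ubiquitin ligase and LXR target that limits sterol uptake, had a log2 fold change of 0.21 (FDR = 0.49).

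In storage and transport, Ch25h (ENSMUSG00000050370, chromosome 19, 34473778 to 34475164), which makes 25-hydroxycholesterol, lay at 14 to 69.9 CPM with tau fibrils and 6.62 to 22.4 CPM with vehicle. It rose with overlapping groups (log2 fold change 1.34, standard error 0.34, FDR = 0.0035). Soat1, which esterifies cholesterol for storage, was at 221 ± 20.2 CPM against 222 ± 20.0 CPM (SD, n = 4, FDR = 0.97). Stard4, a cytosolic sterol carrier, had a log2 fold change of -0.48 (FDR = 0.081).

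Among 28 companion genes of the same pathways, 27 were tested. With tau fibrils 8 were lower, against 15.4% of all genes, and 2 were higher, against 14.5%, and their median log2 fold change was -0.10. The lower genes included the desaturases Scd1 (-0.74, FDR = 0.00025) and Fads1 (-0.58, FDR = 0.0016), the elongase Elovl6 (-0.86, FDR = 0.0023), the acyl-CoA synthetase Acsl3 (-0.81), and the lipoprotein receptors Lrp1 (-0.67, FDR = 0.00071) and Vldlr (-1.03, FDR = 0.0011). Npc2, which carries cholesterol out of lysosomes, rose by 1.17, and Apoe, the main brain apolipoprotein, rose by 0.37 (FDR = 0.038).

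The marker sums of several other cell types were lower with tau fibrils, while those of microglia and border macrophages were higher. In CPM over all 34 libraries, the 8 astrocyte markers summed to 388 to 455 with tau fibrils and 751 to 821 with vehicle, and 5 of 8 tested were lower (median log2 fold change -0.94). Neuron markers summed to 64.3 to 80.3 against 126 to 159 CPM with 4 of 6 lower, and oligodendrocyte markers to 346 to 404 against 553 to 670 CPM with 3 of 7 tested lower and 1 higher. Endothelial markers summed to 55.4 to 64.7 against 102 to 123 CPM with Cldn5 at 0 in both groups. Of 2 endothelial markers tested, 1 was lower, and their log2 fold changes were -1.09 and 0.00. Flt1 had 75 to 122 counts with tau fibrils and 176 to 490 with vehicle, while Pecam1 had 6 to 16 against 0 to 2. Microglia markers summed to 10333 to 11955 CPM with tau fibrils and 4577 to 6105 CPM with vehicle, and 5 of 8 were higher. The part of these shifts in the lower synthesis genes and the higher efflux genes was not tested, and in bulk samples fewer cells of a type and less RNA per cell cannot be told apart.

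Of the 19 calls, 14 were made under every alternative in which the gene was tested, 14 settings in all and 13 for Nr1h3, which a minimum of 10 counts in each library removed. Mvk, Pmvk, Scap, Nr1h2 and Ch25h lost the call under at least 1 of them, Pmvk under 11 and Ch25h under DESeq2 alone (FDR = 0.063), and no called member changed sign.

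The second comparison asked which of these changes are seen in microglia from a tauopathy brain. None of the 31 members tested in PS19 microglia was called against NTG, at a background of 0.0707% of 11323 genes (8 genes). At an unadjusted p under 0.05 there were 2 members, Dhcr7 and Fasn, and 977 of all genes. DESeq2 and limma-voom called 0 members as well. The biological coefficient of variation was 30.5% in this comparison against 16.7% in the tau fibril cultures. The median log2 fold change of the members was 0.16, and 1 member, against 5.77% of all genes, had groups that did not overlap.

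That member was Dhcr7, which makes cholesterol from its last precursor, at 9.72, 17.6, 9.31 and 12.4 CPM in PS19 libraries 1 to 4 and 4.01, 8.48, 7.87 and 5.00 CPM in NTG (log2 fold change 0.90, standard error 0.34, FDR = 0.48). Fasn had 34.9, 20.0, 15.2 and 26.1 CPM in PS19 and 16.1, 15.0, 15.4 and 13.9 CPM in NTG. One PS19 library lay within the NTG range and the other 3 above it, and the log2 fold change of Fasn was 0.67 (standard error 0.27, FDR = 0.52). Ch25h had 9.89, 0.798, 18.7 and 7.29 CPM in PS19 and 4.01, 5.78, 4.53 and 3.33 CPM in NTG, so that the PS19 libraries lay on both sides of the controls (log2 fold change 1.06, standard error 0.62, FDR = 0.66). Sqle had 6.26, 2.93, 1.57 and 4.71 CPM against 3.01, 4.63, 1.97 and 1.67 CPM, with full overlap (log2 fold change 0.46, standard error 0.54, FDR = 0.85). Hmgcs1 ranged over 52.7 to 80.9 CPM against 57.2 to 66.1 CPM, Srebf1 over 8.25 to 39.1 against 13.5 to 36.0 CPM and Srebf2 over 17 to 26.6 against 14.6 to 24.5 CPM. Abca1 ranged over 151 to 397 CPM in PS19 against 193 to 279 CPM in NTG, and Abcg1 over 85.2 to 222 CPM against 115 to 162 CPM, and in both the PS19 range enclosed the NTG range. Nr1h3 was below the filter for low counts. The log2 fold change was 0.19 for Abca1 (standard error 0.29) and 0.22 for Hmgcs1 (standard error 0.18). Of the companions, 24 were tested and 0 were called. Apoe had 9796, 3145, 4223 and 2150 CPM in PS19 libraries 1 to 4 and 3549, 2216, 1719 and 1720 CPM in NTG. Its means were 4829 CPM against 2301 CPM, with PS19 2 and 4 within the NTG range (log2 fold change 1.07, FDR = 0.49). Astrocyte markers summed to 899 to 1987 CPM in PS19 and 667 to 1017 CPM in NTG, of which Slc1a3 alone made up 840 to 1947 and 609 to 947 CPM. Of 5 astrocyte markers tested, 3 had a negative fold change and 0 were called, with a median of -0.23 on the log2 scale. Library PS19 1 held 177 CPM of Xist though all mice were given as male. The part of these markers in the members' values was not tested.

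The third comparison asked what constitutive IKKβ activity does to cultured microglia. Nr1h3 and Ch25h were each higher in all 5 IkbkbCA libraries than in any IkbkbWT library, while the synthesis genes were spread around 0. Of 32 members tested, 2 were higher, against 7.31% of all 11697 genes, and 2 were lower, against 7.16%. The median log2 fold change was -0.04 over the members and -0.05 over all genes, and 3 members had groups that did not overlap, against 12.7% of all genes.

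Nr1h3 had 1.63, 1.22, 1.73, 2.48 and 3.57 CPM in IkbkbWT and 6.29, 10.4, 11.4, 11.2 and 12.8 CPM in IkbkbCA. The IkbkbWT libraries held 6 to 31 counts, so that Nr1h3 passed the filter for low counts through IkbkbCA. Every IkbkbCA library was above every control (log2 fold change 2.24, standard error 0.30, FDR = 0.00041). Ch25h had 32.4, 20.7, 20.6, 27.6 and 26.3 CPM in IkbkbWT and 43.0, 77.7, 147, 167 and 170 CPM in IkbkbCA. The IkbkbCA libraries spread widely, from 43.0 to 170 CPM, and all were above the controls (log2 fold change 2.24, standard error 0.34, FDR = 0.00091). Ebp, the sterol isomerase on the X chromosome, had 131, 119, 117, 103 and 107 CPM in IkbkbWT and 99.4, 98.6, 87.9, 83.0 and 85.6 CPM in IkbkbCA. These groups were adjacent without overlap (log2 fold change -0.34, standard error 0.09, FDR = 0.023). In Ikbkb-/-, the other group with Cre, Ebp had a log2 fold change of -0.29 and was not called (FDR = 0.058). It was called lower there under 5 of 16 alternatives, so that its decrease was not particular to IkbkbCA. Soat1 had 315, 297, 211, 257 and 275 CPM in IkbkbWT and 247, 209, 209, 176 and 172 CPM in IkbkbCA, and fell by 0.42 with overlap (standard error 0.13, FDR = 0.045).

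**Figure D2:**
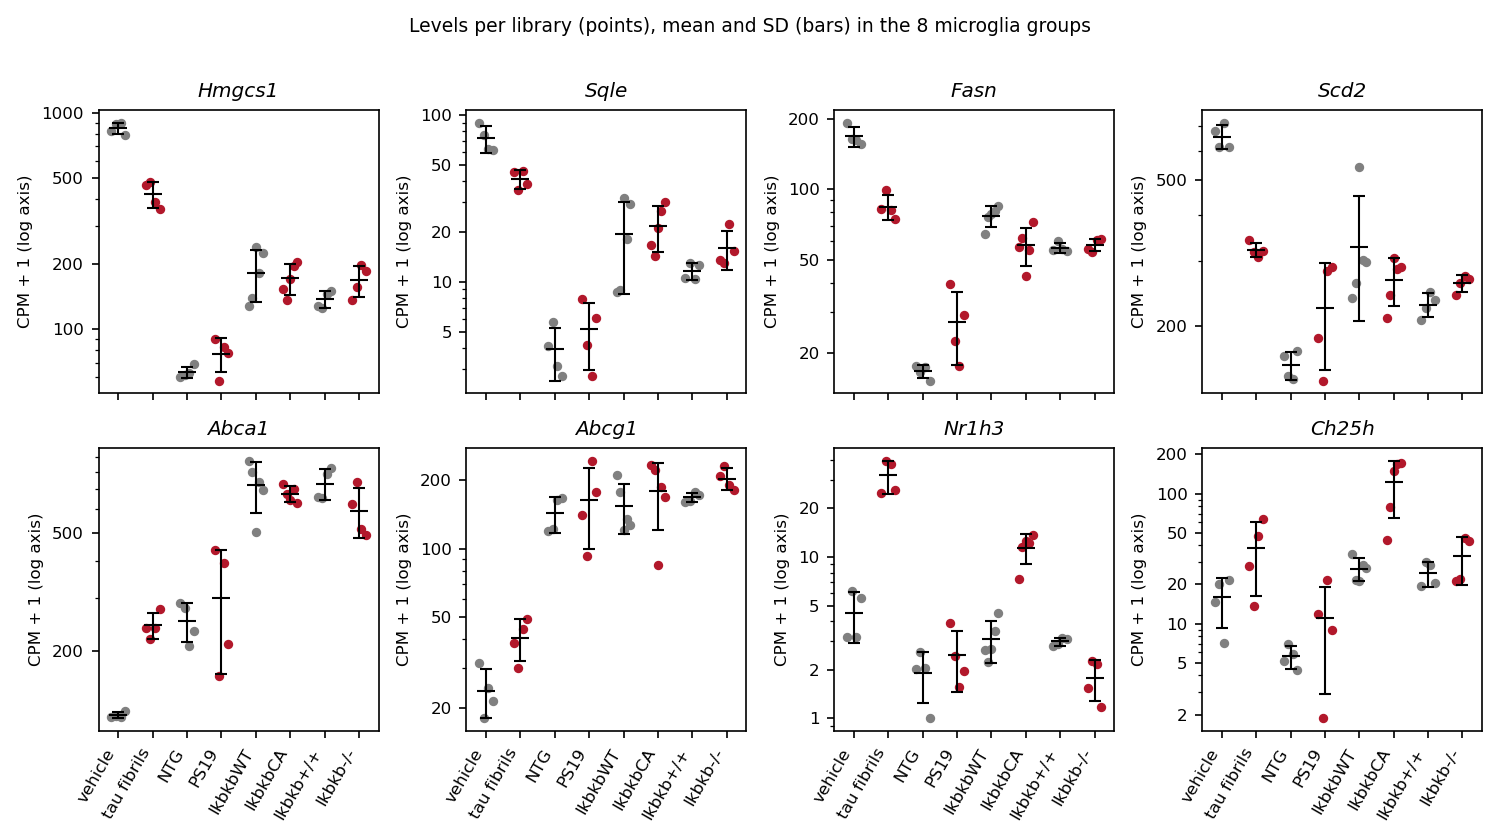
CPM + 1 on a log axis, normalized over all 34 libraries, of Hmgcs1, Sqle, Fasn, Scd2, Abca1, Abcg1, Nr1h3 and Ch25h in the 8 groups, with 1 point per library and bars for the mean and SD. Synthesis genes were highest in the vehicle group and lowest in NTG, Abca1 and Abcg1 were lowest with vehicle, and Nr1h3 was highest with tau fibrils and Ch25h in IkbkbCA.

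None of the 6 mevalonate genes was called in IkbkbCA (median log2 fold change -0.03). Hmgcs1 lay at 124 to 242 CPM in IkbkbWT and 135 to 204 CPM in IkbkbCA (FDR = 0.81), and Sqle at 7.48 to 31.4 CPM against 13.2 to 29.0 CPM (FDR = 0.86). The IkbkbWT libraries differed more among themselves than the groups did: for Hmgcs1, Sqle, Cyp51 and Fdft1, libraries IkbkbWT 1 and 2 were the 2 lowest of the 5 controls. Abca1 was at 511 to 856 CPM against 633 to 727 CPM and Abcg1 at 122 to 206 CPM against 83.7 to 232 CPM, neither called (FDR = 0.66 and 0.65). Srebf1 lay at 19.6 to 31.7 against 18.8 to 27.0 CPM and Srebf2 at 23.8 to 38.5 against 30.5 to 43.4 CPM. Fasn, at 62.3 to 85.8 CPM against 41.6 to 71.8 CPM, was not called, close to the threshold (log2 fold change -0.43, FDR = 0.053), and was called lower under 7 of 19 alternatives. Of 26 companions tested, 1 was higher, against 7.31% of all genes, and 2 were lower, against 7.16%. Npc2 was higher (0.60, FDR = 0.0021), as it also was in Ikbkb-/-, the other group with Cre. Lrp1, a receptor for lipoproteins carrying Apoe, and Scarb1, a receptor for high-density lipoprotein, were lower (-0.69, FDR = 0.00028, and -0.70, FDR = 0.022).

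Ch25h was called under all 19 alternatives in IkbkbCA and Nr1h3 under the 18 in which it was tested, while Ebp lost the call under 9 and Soat1 under 10. A minimum of 10 counts in each library removed Nr1h3, which had passed the filter for low counts through IkbkbCA. Without the 2 oligodendrocyte-rich libraries, IkbkbWT 3 and IkbkbCA 3, Nr1h3, Ch25h and Soat1 were called and Ebp was not (log2 fold change -0.30, FDR = 0.11). In CPM over all 34 libraries, markers of border macrophages summed to 1384 to 1957 in IkbkbWT and 487 to 1034 in IkbkbCA, and 3 of 4 tested were lower. Granulocyte markers summed to 5.7 to 10.8 in IkbkbWT and 16.1 to 81.0 in IkbkbCA, with 1 of 2 tested higher. The part of these markers in the called members was not tested. The IkbkbWT libraries differed in transcripts of the sex chromosomes, with Xist at 1.7 to 485 CPM and Ddx3y at 1.15 to 177 CPM. Ddx3y was a covariate only in 1 fit of all 18 Ikbkb libraries, chosen after seeing the data. Ebp was called lower in that fit with the covariate (FDR = 0.0099) and without it. The part of sex in the level of Ebp was not tested.

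The fourth comparison asked what loss of IKKβ does. Of 31 members tested in Ikbkb-/- microglia, 2 were higher, against 7.64% of all 11242 genes, and 0 were lower, against 6.96%. At an unadjusted p under 0.05 there were 12 members and 3015 of all genes. DESeq2 called 2 members and limma-voom 1. The median log2 fold change was 0.17 over the members and 0.00 over all genes, 21 members had a positive fold change, and 5 had groups that did not overlap, against 18.1% of all genes.

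Abcg1 (ENSMUSG00000024030, chromosome 17, 31057675 to 31117988) had 163, 163, 175 and 171 CPM in Ikbkb+/+ and 216, 232, 191 and 182 CPM in Ikbkb-/-. Its groups did not overlap (log2 fold change 0.28, standard error 0.09, FDR = 0.034). Hmgcs1 had 130, 126, 143 and 149 CPM in Ikbkb+/+ and 139, 156, 198 and 186 CPM in Ikbkb-/-, with library Ikbkb-/- 1 within the control range (log2 fold change 0.32, standard error 0.10, FDR = 0.046). The largest fold changes were not called. Lss, the lanosterol synthase, had 4.85, 4.63, 5.12 and 5.69 CPM in Ikbkb+/+ and 5.08, 6.95, 9.84 and 8.48 CPM in Ikbkb-/- (log2 fold change 0.62, standard error 0.23, FDR = 0.078). Sqle had 9.69, 12.0, 9.26 and 11.6 CPM against 13, 12, 21.3 and 14.4 CPM (0.51, standard error 0.19, FDR = 0.084), the lowest Ikbkb-/- library lying next to the highest control. Fdft1 had 5.97, 6.11, 4.46 and 7.93 CPM against 6.21, 9.48, 7.03 and 12.0 CPM (0.55, standard error 0.24, FDR = 0.15). Ch25h had 19.0, 28.8, 26.8 and 19.3 CPM against 20.9, 21.3, 44.8 and 42.8 CPM (0.50, standard error 0.22, FDR = 0.14), with libraries Ikbkb-/- 3 and 4 above all controls and the other 2 among them.

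Of the 11 genes from squalene to cholesterol, 9 had a positive fold change in Ikbkb-/- with a median of 0.27, and 0 were called. Libraries Ikbkb-/- 3 and 4 had the higher sums of the 18 mevalonate and sterol genes, 690 and 663 CPM over all 34 libraries, against 526 and 533 CPM in Ikbkb-/- 1 and 2 and 528 to 597 CPM in Ikbkb+/+. The same 2 libraries had the lower Abca1, 515 and 494 CPM within the comparison, against 647 and 747 CPM in Ikbkb-/- 1 and 2 and 657 to 821 CPM in the controls (log2 fold change -0.29, FDR = 0.11). Srebf1 lay at 19.8 to 27.4 CPM in Ikbkb+/+ and 15.5 to 22.5 CPM in Ikbkb-/- (FDR = 0.15), Srebf2 at 29.9 to 39.0 against 26.3 to 39.1 CPM and Fasn at 53.2 to 59.6 against 53.5 to 60.7 CPM. Nr1h3 was below the filter for low counts, with 5, 9, 13 and 16 counts in Ikbkb+/+ and 1, 6, 5 and 1 in Ikbkb-/-. Of 26 companions tested, 2 were higher, against 7.64% of all genes, and 4 were lower, against 6.96%. Npc2 was among the higher ones (0.59, FDR = 0.00035). The lower genes were Lbr, a sterol reductase of the nuclear envelope (-0.67, FDR = 0.00019), Npc1, the partner of Npc2 in the lysosomal membrane (-0.28, FDR = 0.013), the phospholipid acyltransferase Lpcat3 (-0.30, FDR = 0.045) and Fads1 (-0.39, FDR = 0.049).

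Both calls depended on single libraries. Leaving out 1 library at a time gave 0 to 5 called members, with 0 called without Ikbkb+/+ 1 or Ikbkb+/+ 3, and fitting all 18 libraries of both Ikbkb experiments together gave 0. In CPM over all 34 libraries, the Ikbkb-/- libraries held 765 to 901 of oligodendrocyte markers against 446 to 573 in Ikbkb+/+, with 7 of 9 markers higher, and 420 to 739 of border macrophage markers against 1501 to 1841, with 4 of 4 tested lower. Granulocyte markers were lower in 2 of 2 tested, with a median log2 fold change of -3.63. The Ikbkb+/+ libraries differed among themselves in them: S100a8 was at 174, 38.5, 15.2 and 3.32 CPM in Ikbkb+/+ 1 to 4 and at 2.18 to 5.44 CPM in Ikbkb-/-. The part of these markers in the 2 calls was not tested. Xist was at 5.7 to 10.4 CPM in Ikbkb-/- and 243 to 401 CPM in Ikbkb+/+, and Ddx3y at 155 to 173 against 35.0 to 69.4 CPM, so that the sex of the cultures and the genotype cannot be told apart within this comparison. With Ddx3y as a covariate in the 18 libraries, 0 members were called.

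**Figure D3:**
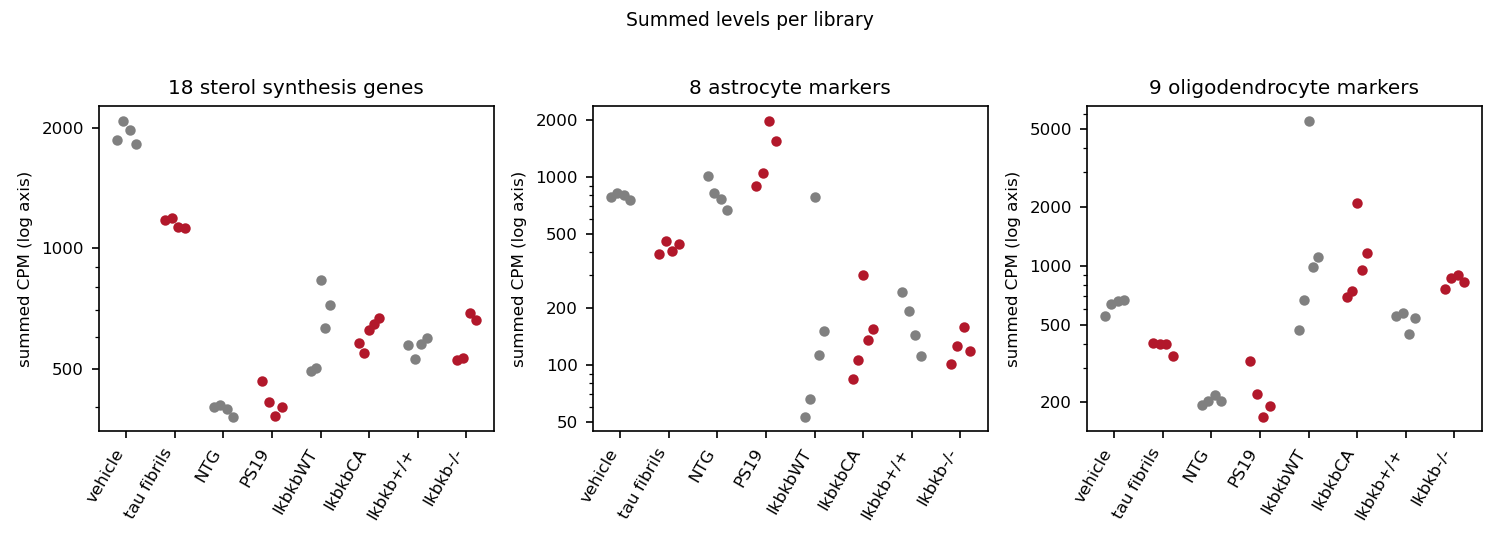
CPM summed per library on a log axis for the 18 mevalonate and sterol genes, the 8 astrocyte markers and the 9 oligodendrocyte markers, normalized over all 34 libraries, with 1 point per library in the 8 groups. The synthesis sum is 1825 to 2087 CPM with vehicle, 1124 to 1194 CPM with tau fibrils and 379 to 405 CPM in NTG, IkbkbWT 3 has the highest oligodendrocyte sum, 5507 CPM, and the astrocyte sums of NTG and PS19 are mostly Slc1a3.

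The effects of active IKKβ and of IKKβ loss were set against each other in 1 fit of 18 libraries. The difference of the 2 effects was higher for 2 of 32 members, against 2.23% of 12352 genes, and lower for 0, against 0.899%. These were Ch25h (difference of log2 fold changes 1.76, standard error 0.47, FDR = 0.049) and Nr1h3. Nr1h3 had passed the filter for low counts in this fit through IkbkbCA alone. The contribution of the deletion to its difference rests on 1 to 6 counts in Ikbkb-/- and 5 to 16 in Ikbkb+/+. Its call therefore cannot decide whether the 2 effects differ, and its fitted value is given only among the flagged results below. All 11 genes from squalene to cholesterol had a negative difference, with a median of -0.29 against -0.04 over all genes, and none was called. Over the 32 members the median difference was -0.19, and it ranged from -0.24 to -0.07 over the alternatives. It was -0.08 without IkbkbWT 3 and -0.07 without both oligodendrocyte-rich libraries, so that its size leaned on these libraries. Fasn had a difference of -0.47 (FDR = 0.15). The call of Ch25h was made in 8 of 26 alternatives. Among the 26 companions tested, 2 were lower, against 0.899% of all genes, Scarb1 (-0.88, FDR = 0.044) and Lrp1 (-0.64, FDR = 0.0039), and 0 were higher.

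**Figure D4:**
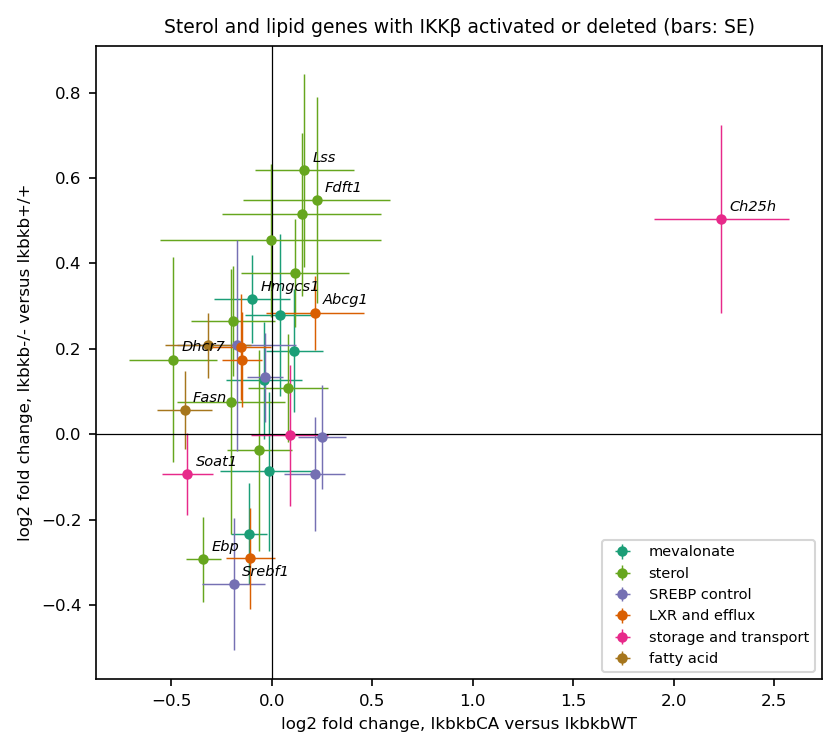
Log2 fold change of IkbkbCA against IkbkbWT (x axis) and of Ikbkb-/- against Ikbkb+/+ (y axis) for the 31 members tested in both, with standard errors as bars. Ch25h lies far to the right at 2.24, and the other members lie between -0.49 and 0.25 on the x axis.

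Across the 8 groups, the levels of the members differed most between the 3 experiments. In CPM over all 34 libraries, which are set side by side without a test because the 3 experiments were prepared apart, 22 of 33 members had their highest group mean with vehicle and 18 their lowest in NTG. Hmgcs1 had a group mean of 847 CPM with vehicle and 62.4 CPM in NTG, a ratio of 13.6, and the ratio of the same groups for Sqle was 24.6. The summed 18 synthesis genes had medians of 1923 CPM with vehicle, 1157 CPM with tau fibrils, 573 to 632 CPM in the 4 Ikbkb groups, and 406 and 398 CPM in PS19 and NTG. The ranges of PS19 (381 to 466 CPM) and NTG (379 to 405 CPM) overlapped, as did those of the 4 Ikbkb groups (494 to 833 CPM in IkbkbWT, the widest), whereas the vehicle and tau fibril groups overlapped no other group.

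The efflux genes had another order. Abca1 had its highest group mean in Ikbkb+/+ (731 CPM) and its lowest with vehicle (120 CPM), and Abcg1 its highest in Ikbkb-/- (203 CPM) and its lowest with vehicle (22.8 CPM). The vehicle cultures thus combined the highest synthesis sum with the lowest levels of both exporters, and the group means with tau fibrils lay between them and the Ikbkb cultures in all 3 measures. Nr1h3 had group means from 0.788 CPM in Ikbkb-/- to 31.0 CPM with tau fibrils, and Ch25h from 4.60 CPM in NTG to 121 CPM in IkbkbCA. Scap had the smallest ratio between its highest and lowest group mean, 1.85, among all members.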

How the data were processed

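The authors sequenced QuantSeq 3′ libraries, in which a count does not grow with transcript length, and mapped the reads on the BlueBee platform (Lexogen QuantSeq 2.2.3) to GRCm38 with GENCODE annotation. They deposited whole-number counts without normalization for 47643 Ensembl genes per library, followed by 5 summary lines that were left out here. The study names RSEM for its count table, and the counting strand is not given in the sources used here. Reads outside genes were 12.4% to 38.3%. Symbols of 47224 genes came from GENCODE M21. Of the 58 samples, the 24 of cortex were not analysed here. Of 561 library pairs, 0 were identical.

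In R 4.3.3, each comparison was fitted on the libraries of its 2 groups with edgeR 4.0.16 (TMM, filterByExpr with minimum count 10 and minimum total 15, quasi-likelihood test, Benjamini-Hochberg FDR under 0.05 over all genes), and the difference of the Ikbkb effects in 18 libraries. Levels are TMM-normalized CPM, either within a comparison, beside its tests, or over all 34 libraries. The procedure was run on simulated counts, drawn independently for each library without differences in cell mixture, and the outcome is not given here. Alternatives were RLE and total-count scaling, DESeq2 1.42.0, limma-voom (limma 3.58.1), a minimum of 10 counts in each library, no filter, age in PS19, 1 fit of 18 libraries and leaving out each library. Leaving out both oligodendrocyte-rich libraries and Ddx3y as a covariate were chosen after seeing the data.

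The members and lists were chosen with earlier results of these data known. All 33 members are named or counted. Of the 28 companion genes, some are counted but not reported here by name. Values per library are given for at most 8 called members with groups that do not overlap, by size of the fold change, or for the 4 largest fold changes where fewer than 3 members qualify, and ranges for Hmgcs1, Sqle, Srebf1, Srebf2, Abca1, Abcg1, Ch25h and Fasn. Values per library of Soat1 in IkbkbCA and of Abcg1 and Hmgcs1 in Ikbkb-/- were added after they were seen, because these genes were called.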

Additional observations from a re-analysis of the deposited data

Results flagged for a closer look

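A library far from the others of its group was found in 17 of 252 groups of values checked (CPM over all 34 libraries, Dixon's test at 95%), where chance gives about 1 in 20. Library Ikbkb-/- 2 was low for Mvk (10.9 CPM, the others 19.1 to 19.8) and Pmvk (25.1 CPM, the others 30.3 to 30.6). Library Ikbkb+/+ 2 was low for Msmo1 (40.4 CPM) and Ebp (137 CPM) and high for Nr1h2 (33.7 CPM), and Ikbkb+/+ 1 was low for Mylip (124 CPM). IkbkbWT 3, the library richest in oligodendrocyte markers, was high for Hsd17b7 (49.7 CPM, the others 6.65 to 14.4), Sc5d (31.4 CPM, the others 14.6 to 18.7) and Scd2 (543 CPM, the others 237 to 302). The part of those markers in these values was not tested. IkbkbCA 5 was high for Fdft1 (16.2 CPM) and IkbkbCA 4 for Scap (45.3 CPM). PS19 2 was high for Fdft1 (8.93 CPM) and Sc5d (39.7 CPM), and PS19 4 for Hsd17b7 (10.6 CPM). Vehicle 2 was high for Fdps (61.8 CPM, the others 35.7 to 37.6) and vehicle 4 for Nr1h2 (25.4 CPM), and tau fibrils 1 was low for Tm7sf2 (7.09 CPM).

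The test of the difference between the effects of active IKKβ and of its loss called 2 members. For Ch25h the difference was 1.76 on the log2 scale (FDR = 0.049). For Nr1h3 the fitted value was 3.56 (FDR = 0.00068), but this call cannot decide whether the 2 effects differ. Nr1h3 had 1 to 6 counts in Ikbkb-/- and 5 to 16 in Ikbkb+/+ and passed the filter for low counts through IkbkbCA alone, so that its fitted value does not measure the effect of the deletion.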

How the results depend on the processing

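No paired analysis was possible because the libraries were numbered in accession order and the numbers link no libraries across groups. No called member changed sign under any alternative run. The members called numbered 19 with tau fibrils and 15 to 19 when 1 library was left out, with 16 to 23 under the other settings, and 0 in PS19 under every setting, leaving out a library included (0 to 0). Over all genes PS19 had 8 calls, 98 with DESeq2, 166 without a filter, 4 with limma-voom, 0 with age as a covariate and 4 to 54 with 1 library left out. In IkbkbCA, 4 members were called, 2 without a filter, 5 with total-count scaling, DESeq2, limma-voom, 1 fit of 18 libraries or Ddx3y as a covariate (the fifth being Fasn, lower), 3 with RLE scaling, a minimum of 10 counts in each library or both oligodendrocyte-rich libraries left out, and 2 to 3 with 1 library left out, 2 being called without IkbkbWT 2, IkbkbCA 3 or IkbkbCA 4. In Ikbkb-/-, 2 were called, 1 with total-count scaling (Ebp, lower), 1 with limma-voom, 5 without a filter, 0 in 1 fit of 18 libraries, 0 with Ddx3y as a covariate, and 0 to 5 with 1 library left out. The difference of the Ikbkb effects was called for 2 members, 1 with total-count scaling, 1 with limma-voom, 1 with at least 10 counts in every library, 1 with Ddx3y as a covariate, 1 without both oligodendrocyte-rich libraries, and 1 to 2 with 1 library left out. The causes were not tested.

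With 1 library left out, Mvk lost its call without tau fibrils 1, 2 or 4 or vehicle 2 or 4 (FDR up to 0.15), Pmvk when any library other than vehicle 2 was left out (up to 0.17), Scap without tau fibrils 4 or vehicle 4 (up to 0.078) and Nr1h2 without tau fibrils 2 or 4 or vehicle 1, 2 or 3 (up to 0.14). Ebp in IkbkbCA lost it without IkbkbWT 1, 2 or 3 or IkbkbCA 1, 3, 4 or 5 (up to 0.11), and Soat1 when any library other than IkbkbWT 3 or IkbkbCA 1 was left out (up to 0.16). In Ikbkb-/-, Hmgcs1 lost it without Ikbkb+/+ 1, 2 or 3 or Ikbkb-/- 3 or 4 (up to 0.19), and Abcg1 when any library other than Ikbkb-/- 3 or 4 was left out (up to 0.13). The difference for Ch25h lost it when any library other than IkbkbWT 1, IkbkbCA 1, IkbkbCA 2 or Ikbkb-/- 3 was left out (up to 0.12).

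Total-count scaling shifted the median of all genes with tau fibrils by -0.15 and split the calls into 1057 higher and 2254 lower in place of 1506 and 1602, in IkbkbCA into 753 and 1252 in place of 855 and 837, and in the difference of the Ikbkb effects into 252 and 193 in place of 275 and 111. Counts of genes at few CPM, such as Sqle in PS19 and Nr1h3 outside the tau fibril cultures, limit what these libraries show.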
